A study of Mus musculus with 8 samples.

Results

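Ptprc, the pan-leukocyte phosphatase CD45, and the lymphocyte genes Cd79a, Cd79b, Ighm, Cd4, Cd3e, Cd3g, Lck and Rag1 were followed in the developing mouse lung. They were taken as every probe set of the array whose single annotated gene symbol is one of these 9 genes, which gave 26 of 12488 probe sets for 8 of the genes. No probe set was annotated to Lck alone, so Lck was not analysed here. Laser-captured tips of secondary alveolar septa from frozen sections of many mice were set against RNA of pooled whole lung, both from C57/Bl6 mice at postnatal day 6 with no transgene or treatment given in the labels. Each group had 2 RNA samples, one from experiment 1 and one from experiment 2, with different litters, and each RNA was hybridised to 2 arrays. The RNA was amplified before labelling, in both tissues by the design text, though the labels of only 1 lung array mention that step. Groups follow the sample titles, since the description field of the tip arrays names whole lung tissue. Laser capture takes all cells of the cut area, so a tip holds any leukocyte within it or in its capillaries.

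CD45 is a transmembrane tyrosine phosphatase carried by nearly all nucleated blood cells, macrophages included, and it sets the threshold of antigen receptor signalling by acting on Src family kinases such as Lck. B cells carry an immunoglobulin receptor whose heavy chain in newly made cells is mu, encoded by Ighm, and which signals through the Cd79a and Cd79b chains. T cells signal through the CD3 chains, among them Cd3e and Cd3g, with Cd4 as the co-receptor for MHC class II that carries Lck on its tail. Rag1 is one subunit of the recombinase that assembles the antigen receptor genes in immature lymphocytes of bone marrow and thymus.

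The deposited MAS5 values are linear signals, 1 per probe set. The median signal of 19 bacterial and yeast control probe sets was 121 to 332 on tip arrays and 66.9 to 97.3 on lung arrays, so probe sets that match no mouse gene were brighter on tip arrays. An array's background is given here as the 95th percentile of those control probe sets. Markers of endothelial, epithelial and mesenchymal cells, which build a septum, were above background on all 8 arrays at the brightest probe set of each gene, with the exceptions of Epcam (1 of 4 tip arrays, 4 of 4 lung arrays) and Tagln (4 of 4 tip arrays, 3 of 4 lung arrays). The median log2 difference of all 7453 probe sets tested, tips minus lung, was 0.35 and moved to 0.03 with quantile normalization, -0.19 with median centring and 0.05 with cyclic loess. With it the share of calls that were higher in tips moved to 37.6%, 15.2% and 41.1%, against 51.5% with the scaling used here.

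Of the 26 probe sets, 9 passed the filter, which kept those whose mean log2 value over all arrays was at or above the 40th percentile of all probe sets. The other 17 were above background in 6 of 68 values in tips and 2 of 68 values in lung. Among these 9, 5 were higher in tips, 1 was lower and 3 did not pass the test (limma, Benjamini-Hochberg adjusted p under 0.05 over all probe sets tested). Over all probe sets tested 28.3% were called, 14.5% higher and 13.7% lower. A probe set that is dim in lung enters this count only when it is bright in tips, so the balance of calls is not evidence of a direction of the lymphocyte genes. The called probe sets were 101048_at of Ptprc, lower in tips, and 161012_at of Cd79b, 93583_s_at and 93584_at of Ighm, 103480_at of Cd4 and 161740_r_at of Rag1, higher in tips. In each of these 6 the 4 tip arrays lay wholly on one side of the 4 lung arrays, as they did upwards in 24.1% and downwards in 18.0% of all probe sets tested.

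**Figure D1:**
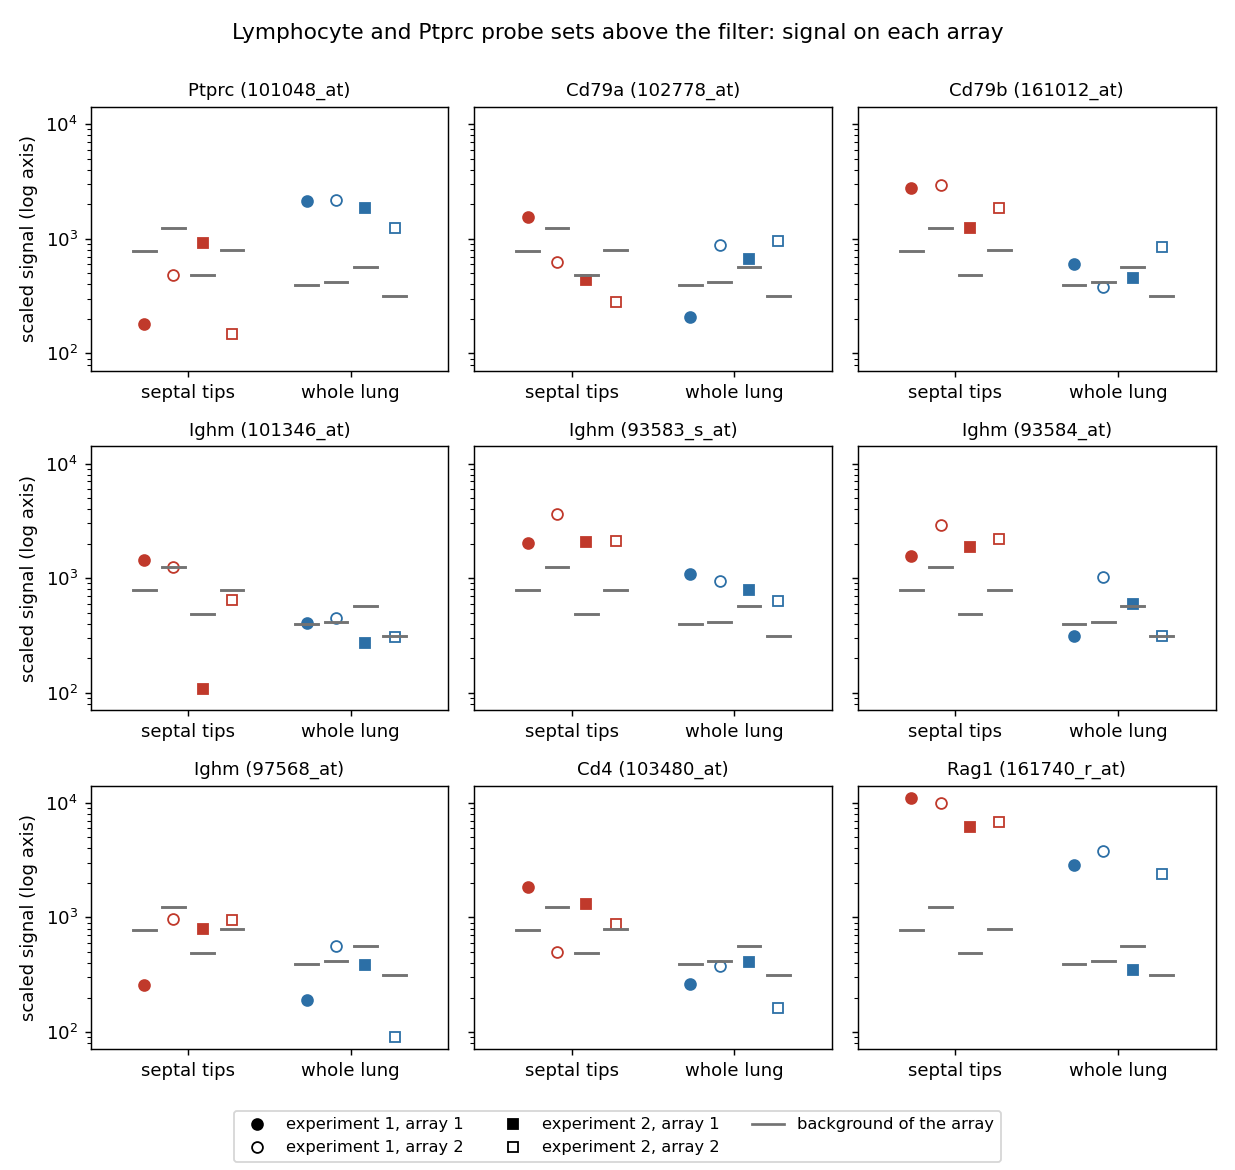
Scaled signal (log axis) of the 9 probe sets that passed the filter, septal tips left and whole lung right, circles for experiment 1 and squares for experiment 2, filled for array 1 and open for array 2, with a grey bar at the background of each array. Ptprc lies lower on the 4 tip arrays than on any lung array, and Cd79b, Cd4, Rag1 and the Ighm probe sets 93583_s_at and 93584_at lie higher, while the grey bars are also higher in tips on most arrays.

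Ptprc fell in tips at the probe set that was above background in lung. Probe set 101048_at had signals of 179, 485, 915 and 146 in tips (arrays 1 and 2 of experiment 1, then of experiment 2), against 2119, 2188, 1859 and 1239 in lung. The groups did not overlap, and the highest tip value, on array 1 of experiment 2, was the only tip value above background, while all 4 lung values were above it. The means were 431 ± 140 in tips and 1851 ± 428 in lung (SD, n = 2 RNA samples), a log2 difference of -1.95 ± 0.41 (SE; limma adjusted p = 0.00930). It was -2.33 in experiment 1 and -1.57 in experiment 2. The fall was also called under 4 other ways of bringing the arrays to one level (quantile, median, cyclic loess, none), at adjusted p between 0.00213 and 0.00930. It was not called on the arrays numbered 1 alone (-1.85, limma adjusted p = 0.0775). With all values raised to at least the highest background of any array (1244) it was -0.49 (limma adjusted p = 0.141). That floor lies above every tip value and just above the lowest lung value (1239), so every tip array was set to the floor. In bulk samples, fewer cells of a type and less RNA per cell cannot be told apart.

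The other Ptprc probe sets were dim. Probe set 101298_g_at had 550, 69.1, 127 and 134 in tips, against 60.2, 77.0, 49.0 and 49.4 in lung, and 101297_at had 483, 44.8, 18.8 and 47.6 in tips, against 17.9, 50.4, 8.8 and 10.2 in lung. All 16 of these values lay under background, so they carry no measured level and were not tested. The decrease of Ptprc thus rests on 1 of 3 probe sets.

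The annotated start of Ptprc and that of Rag1 are shown because these are the only called genes of the set with a promoter entry. Both sequences are from RefSeq, build GRCm38.p6, on the minus strand, and run from 250 bases before to 50 after an annotated start. Capitals mark matches on either strand to the ETS factor core AGGAAG, the E protein E-box CAGGTG and the motif of the core promoter box TATAAA, so that a match on the other strand shows its complement read backwards, and no matches overlap. The Ptprc window is chr1:138175256-138175555 and the Rag1 window is chr2:101649483-101649782.
Ptprc: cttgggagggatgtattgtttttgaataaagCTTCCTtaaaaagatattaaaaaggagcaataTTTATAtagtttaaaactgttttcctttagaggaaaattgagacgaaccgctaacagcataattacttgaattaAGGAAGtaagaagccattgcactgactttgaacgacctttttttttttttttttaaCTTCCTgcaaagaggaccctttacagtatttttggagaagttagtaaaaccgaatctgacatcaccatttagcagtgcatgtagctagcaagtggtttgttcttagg
Rag1: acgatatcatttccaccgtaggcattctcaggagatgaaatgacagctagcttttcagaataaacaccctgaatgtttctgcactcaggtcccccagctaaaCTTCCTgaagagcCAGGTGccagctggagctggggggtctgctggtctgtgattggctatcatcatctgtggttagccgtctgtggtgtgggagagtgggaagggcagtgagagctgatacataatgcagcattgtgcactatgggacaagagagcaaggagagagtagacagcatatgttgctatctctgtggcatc
The Ptprc window held AGGAAG 3 times and TATAAA once, and a second annotated start of Ptprc held AGGAAG once. The Rag1 window held AGGAAG and CAGGTG once each. AGGAAG is found in 35.4%, CAGGTG in 20.2% and TATAAA in 13.6% of 32851 promoter windows of this length, and the octamer ATGCAAAT, found in 1.74%, was in neither. These matches describe the letters of the windows only.

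Ighm, the heavy chain of IgM, rose in tips at the probe sets that were above background on all tip arrays. Probe set 93584_at had signals of 1553, 2915, 1864 and 2208 in tips, against 311, 1019, 596 and 309.6 in lung. All tip values were above background and higher than every lung value, of which 2 were above background. The means were 2135 ± 140 in tips and 559 ± 150 in lung (SD, n = 2), a log2 difference of 1.77 ± 0.37 (SE; limma adjusted p = 0.00953), with 1.64 in experiment 1 and 1.90 in experiment 2. This increase held under the same 5 scalings (adjusted p up to 0.0412) and after the control median of each array was subtracted.

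The other called Ighm probe set, 93583_s_at, whose suffix marks probes that several transcripts share, was above background on all 8 arrays. It had 2016, 3601, 2057 and 2114 in tips, against 1090, 952, 787 and 636 in lung, a log2 difference of 1.33 ± 0.36 (SE; limma adjusted p = 0.0257). Array 2 of experiment 1 stood above the other tip arrays, which lay close together. The call was lost with quantile normalization (adjusted p = 0.0922), median centring (0.152) and cyclic loess (0.0711), so it depends on how the arrays are brought to one level. Relative to the background of its own array, the signal of 93583_s_at was 2.58 to 4.23 in tips and 1.39 to 2.76 in lung, and that of 93584_at 1.99 to 3.83 in tips and 0.788 to 2.44 in lung. On that scale the groups overlapped at both probe sets, as they did for Cd79b, Cd4 and Rag1 below. Ptprc 101048_at stayed lower in tips (0.185 to 1.88, against 3.27 to 5.37 in lung). Background was 487 to 1244 on tip arrays and 314 to 568 on lung arrays, so dividing by it lowers most tip values relative to lung. The contrast between Ptprc and the other probe sets is thus partly built into this scale.

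The other Ighm probe sets were dim or variable. Probe sets 101346_at and 97568_at passed the filter, with log2 differences of 0.71 ± 0.61 and 0.99 ± 0.50 (limma adjusted p = 0.393 and 0.159). Probe set 101346_at had 1441, 1248, 107 and 643 in tips, against 403, 446, 269.6 and 306 in lung, and 97568_at had 256, 976, 789 and 955 in tips, against 189, 558, 387 and 89.6 in lung. Tips and lung overlapped at both. The remaining 12 of the 16 Ighm probe sets were under the filter, were above background on at most 2 of 8 arrays and had log2 differences from -0.31 to 1.12. Immunoglobulin genes are alike in sequence, and cross-hybridisation among them was not tested. Of the 16, 15 had a higher mean log2 value in tips, and so did the control probe sets, which match no mouse gene.

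Of the receptor chains that signal for IgM, Cd79b rose and Cd79a did not pass the test. Cd79b (161012_at) had 2766, 2970, 1247 and 1871 in tips, against 604, 379, 456 and 844 in lung. Tips lay above lung without overlap and above background on all 4 arrays, and the arrays of experiment 1 were higher than those of experiment 2. The means were 2214 ± 926 in tips and 571 ± 112 in lung (SD, n = 2), a log2 difference of 1.68 ± 0.41 (SE; limma adjusted p = 0.0182), with 2.26 in experiment 1 and 1.11 in experiment 2. The call was lost with quantile normalization (adjusted p = 0.0599) and median centring (0.0689) and was kept with cyclic loess (0.0454).

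Cd79a (102778_at), the partner chain of the same heterodimer, had 1539, 633, 441 and 282 in tips, against 207, 889, 661 and 963 in lung. The groups overlapped, tips being higher than lung on array 1 of experiment 1 and lower on the other 3 pairs of arrays, and the log2 difference was 0.00 ± 0.53 (SE; limma adjusted p = 0.997). It was 0.92 in experiment 1 and -0.91 in experiment 2, and 0.89 on the arrays numbered 1 and -0.89 on those numbered 2. Whether the chains differed from each other was not tested.

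Cd4 rose, while the CD3 chains were too dim to test. Cd4 (103480_at) had 1844, 504, 1321 and 869.9 in tips, against 261, 375, 409 and 162 in lung. Tips were above lung without overlap, but no lung array and 3 of 4 tip arrays were above background. With lung set at the background of its arrays, tips were 2.45-fold brighter. This is not a lower limit, since the tip value of 504 lay under the background of its own array. The fitted log2 difference was 1.42 ± 0.43 (SE, limma adjusted p = 0.0393). The call was lost with quantile normalization (adjusted p = 0.153), median centring (0.189), cyclic loess (0.178) and the floor at 1244 (0.310), with no filter on dim probe sets (0.0667), and when the control median of each array was subtracted (0.0919). CD4 is carried by some monocytes and macrophages as well as by T cells.

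The CD3 chains, which mark T cells most strictly, were at or near background. Cd3e (102971_at) had 523, 127, 248 and 178 in tips, against 108, 176, 192 and 117 in lung, all under background. Cd3g (100001_at) had 146, 839, 525 and 53.6 in tips, against 25.1, 70.0, 41.5 and 24.7 in lung, with 1 tip array above background. Neither passed the filter, so no level of these chains can be given for either tissue. Without the filter, Cd3g gave 1.24 and passed the test, with a lung level that is background.

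Rag1 rose at one of its probe sets and was under background at the other. Probe set 161740_r_at, whose suffix marks probes chosen under relaxed design rules, had 11101, 9930.3, 6135 and 6832 in tips, against 2879.9, 3791, 347 and 2384 in lung. Tips lay above lung without overlap, and array 1 of the lung RNA of experiment 2 stood far under the other lung arrays and under background. The means were 8499 ± 2851 in tips and 2350.3 ± 1393 in lung (SD, n = 2), a log2 difference of 2.09 ± 0.50 (SE; limma adjusted p = 0.0167). Against the background of each array, tips had 7.98 to 14.2 and lung 0.61 to 9.06. The other probe set, 93683_at, had 73.2, 357, 324 and 542 in tips, against 380.4, 264, 24.9 and 282 in lung, under background on all 8 arrays. The increase of Rag1 thus rests on 1 of 2 probe sets, and was not called with median centring (limma adjusted p = 0.0632).

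**Figure D2:**
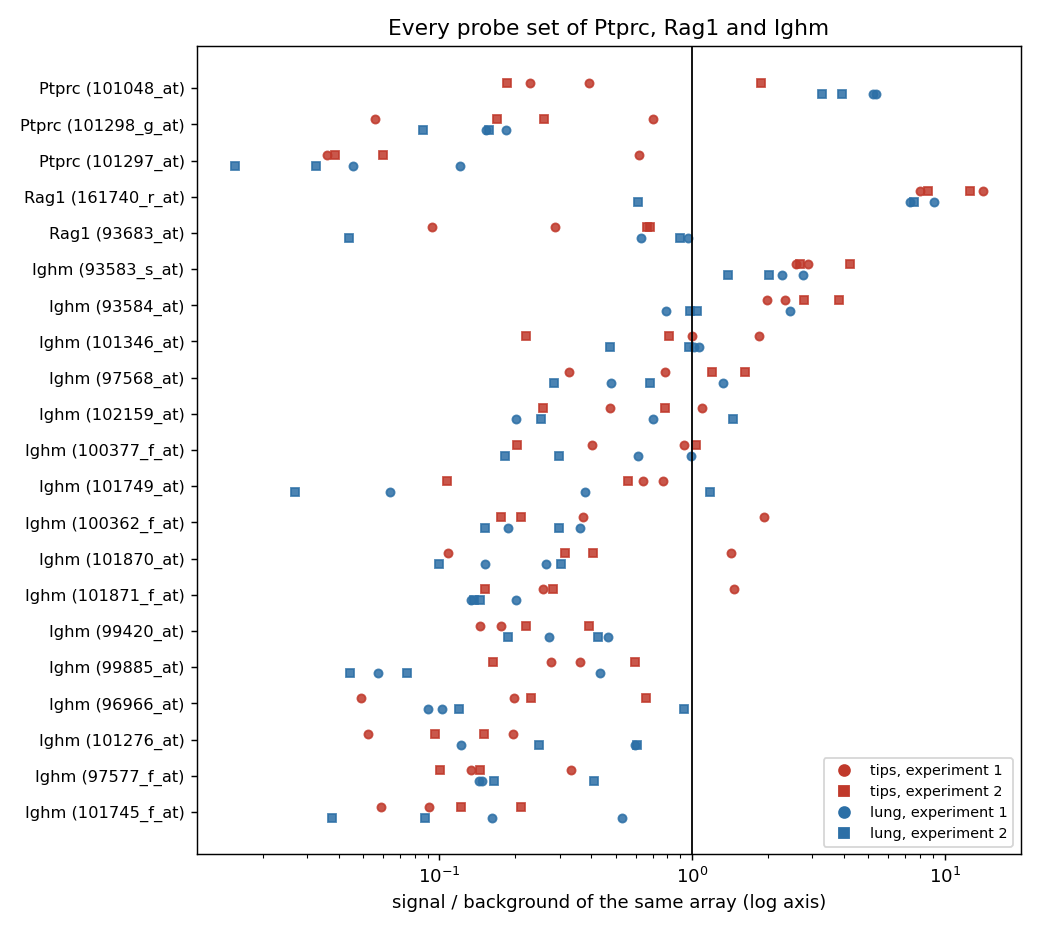
Signal divided by the background of the same array (log axis) for every probe set of Ptprc, Rag1 and Ighm, tips in red above lung in blue, circles for experiment 1 and squares for experiment 2, with the line at 1 marking background. Ptprc 101048_at is above background on all 4 lung arrays and Rag1 161740_r_at on all 4 tip arrays, while the other probe sets of these genes lie under it, and of the 16 Ighm probe sets only 93583_s_at and 93584_at are above it on all tip arrays.

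**Figure D3:**
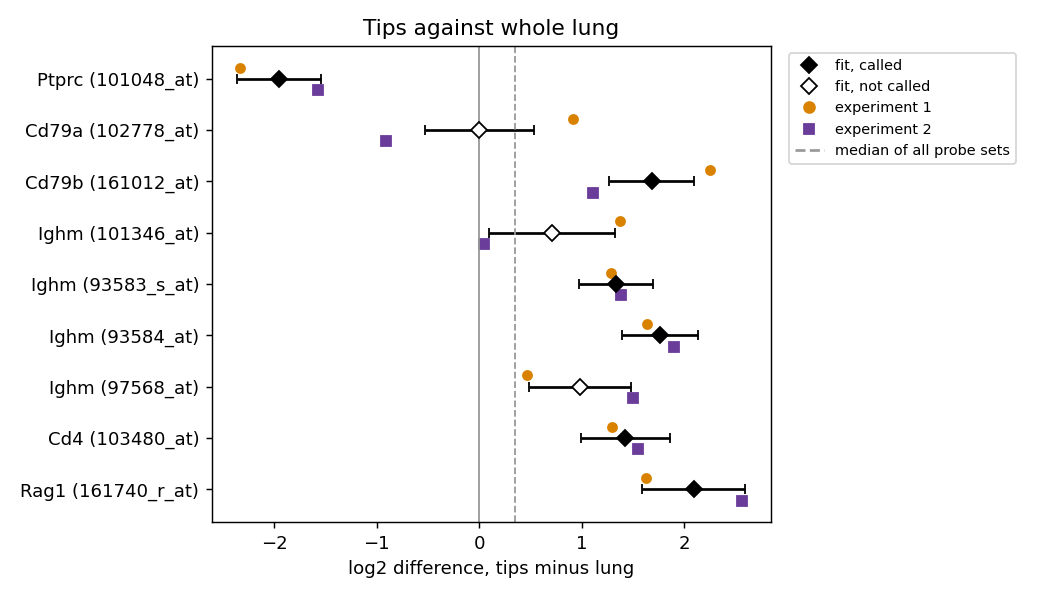
Log2 differences, tips minus lung, of the 9 probe sets that passed the filter, as diamonds (filled where called) whose bars are the standard error from 2 RNA samples a group, with the value of each experiment beside them and the median of all probe sets as a dashed line. Ptprc is at -1.95 and Rag1 at 2.09, and the experiments disagree in sign for Cd79a alone.

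When an RNA of a group was left out, the lone RNA of that group was taken to vary like the other group. Calls made without a lung RNA so rest on the spread of the tip RNA samples. The log2 differences without the lung RNA of experiment 1, then of experiment 2, were -1.72 and -2.18 for Ptprc and 1.54 and 1.83 for Cd79b. They were 1.93 and 1.605 for Ighm 93584_at, 1.56 and 1.11 for Ighm 93583_s_at, 1.50 and 1.35 for Cd4, and 2.90 and 1.28 for Rag1. Without the lung RNA of experiment 1 the Rag1 probe set alone passed, and without that of experiment 2 none did (limma, 0 of 9), while leaving out either tip RNA kept all 6. Over all probe sets those omissions left 349 and 556 calls in place of 2106. With the experiment as a block all 6 passed, and with the control median of each array subtracted 5 of 6 passed.

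Other genes of the same cells moved both ways. Of 12 B cell and antibody genes tested, on the brightest probe set of each, 6 were higher and 1 lower in tips, with a median log2 difference of 1.26, against 29.7% called (14.6% higher and 15.1% lower) and a median of 0.31 over all 5642 genes. These counts move with the scaling: with quantile normalization, median centring and cyclic loess 1, 0 and 2 were higher and 0, 1 and 0 lower, at medians of 0.88, 0.72 and 0.91. Which of these genes enter was set by the same filter as above. Besides Ighm and Cd79b these were the light chain gene Iglc1 at 1.61 ± 0.42, the Src family kinase gene Blk at 1.51 ± 0.42, the B lineage regulator Pax5 at 1.50 ± 0.40 and the ETS factor gene Spib at 1.39 ± 0.33 (SE; limma adjusted p = 0.0158 to 0.0294). Cd24a, which epithelial cells also carry, fell by 1.37 ± 0.41 (limma adjusted p = 0.0374). Igll1, the surrogate light chain of pre-B cells, gave 1.19 (limma adjusted p = 0.0562), and Ms4a1, which encodes CD20, gave 0.70 (0.118) at its brightest probe set and -1.20 (0.0770) at another.

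Of 11 T cell genes tested, 2 were higher and 0 lower, with a median of 0.82, and with quantile, median and cyclic loess scaling 0 were higher and 0, 1 and 0 lower, at medians of 0.39, 0.27 and 0.43. Cd27, a receptor of the TNF receptor family on T and B cells, was the other at 1.01 ± 0.33 (limma adjusted p = 0.0499). Thy1, Cd247 and Il7r gave 1.80, 1.53 and 1.28 without passing (limma adjusted p = 0.0588, 0.0661 and 0.0913). Fyn, a Src family kinase gene, gave -0.70 (0.114). Of 5 genes of antigen receptor recombination tested, Rag1 was higher and the other 4 did not pass, at -0.60 for Dntt, -0.52 for Tcf3, -0.26 for Xrcc6 and -0.15 for Prkdc. Rag2, the obligate partner of Rag1, was under the filter. Of 4 natural killer and cytotoxic genes tested, the granzyme gene Gzmb was higher, at 1.91 (limma adjusted p = 0.0205). It was above background on 2 of 4 tip arrays and 0 of 4 lung arrays. Tips were 2.47-fold over the background of the lung arrays, which is thus not a lower limit.

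Of 15 pan-leukocyte genes tested, 3 were higher and 3 lower, with a median of 0.57, which moved to 0.08, 0.03 and 0.07 with quantile, median and cyclic loess scaling. Ptprc fell together with Laptm5, a lysosomal membrane protein of blood cells, at -1.39 ± 0.36, and Lcp1, the leukocyte plastin, at -1.02 ± 0.32 (limma adjusted p = 0.0218 and 0.0432). Lsp1, an actin-binding protein of leukocytes and endothelium, rose by 2.84 ± 0.32 (limma adjusted p = 0.00111), the glycoprotein gene Cd52 by 1.35 and the GTPase gene Rac2 by 1.31 (0.0435 and 0.0494). Of Laptm5, another probe set gave 0.82 (limma adjusted p = 0.199), the opposite sign. Itgal, the alpha chain of the leukocyte integrin LFA-1, gave 1.33 (limma adjusted p = 0.0524). Ptprcap, which encodes a CD45-associated protein, gave 1.49 and did not pass (limma adjusted p = 0.0529). Its groups overlapped, and it was above background on 3 of 4 tip arrays and 1 of 4 lung arrays. Whether it differed from Ptprc was not tested. Across the 5 lymphocyte and leukocyte lists (12, 11, 5, 4 and 15 genes tested), 17 genes were called at their brightest probe set. Over all genes 29.7% were called. Of the 17 genes, 2 held at that probe set under all 5 scalings, Ptprc and Lsp1. Ighm 93584_at, which also held, is not the brightest of its gene. In quantile, median and cyclic loess scaling the totals were 4, 6 and 5. Over all 5642 genes tested, 826 were higher and 851 lower with the scaling used here. Those 3 scalings gave 477 higher and 831 lower, 203 and 1230, and 627 and 927 over all genes.

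**Figure D4:**
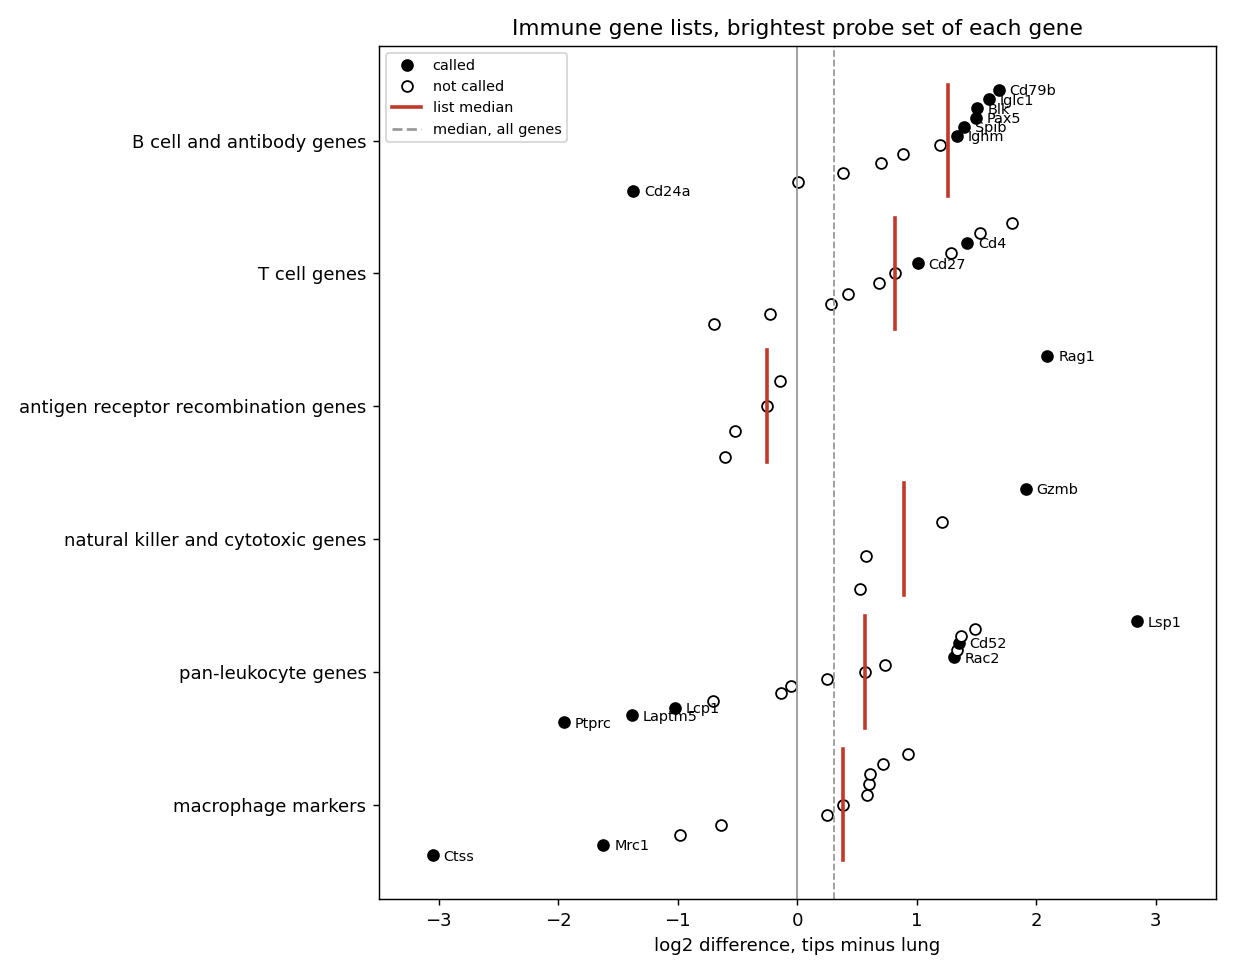
Log2 differences, tips minus lung, of the genes of the immune lists that passed the filter, 1 point per gene, filled and named where called, with the list median in red and the median of all genes dashed. B cell genes lie mostly to the right at a median of 1.26, while Ptprc lies to the left with Laptm5 and Lcp1, as do Ctss and Mrc1 among the macrophage markers.

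Macrophages carry Ptprc, and their markers are given beside it. Of 15 macrophage markers 11 were tested, 0 were higher (limma; 0 also at an unadjusted p under 0.05, but 1 with quantile normalization and with cyclic loess) and 2 were lower in tips: the protease gene Ctss at -3.05 ± 0.31 and the mannose receptor gene Mrc1 at -1.62 ± 0.51 (limma adjusted p = 0.000950 and 0.0423). The summed signal of the list was 34477 to 49294 in tips and 53684 to 78772 in lung, a gap that Ctss alone made: without it the sums were 31057 to 44109 in tips and 26991 to 35432 in lung, which overlap. Mpeg1 gave -0.98 (limma adjusted p = 0.0664), while Lyz2, Csf1r and C1qb gave 0.60, 0.61 and 0.59 (0.160, 0.214 and 0.266). Marco, Itgam and Adgre1 were under the filter. Another probe set of Csf1r gave -0.58 (limma adjusted p = 0.44), the opposite sign. Another of Lyz2, under the filter, was lower on every tip array than on any lung array. It was above background on 0 of 4 tip arrays and 3 of 4 lung arrays. Those of Mpeg1 and C1qb, at 0.88 and 0.32, were under background on all 8 arrays and not tested. The summed signal of the pan-leukocyte list was 37688 to 43416 in tips and 49176 to 69499 in lung. Without Laptm5 it turned round, to 24864 to 28116 in tips and 15580.3 to 19729 in lung. Of these sums Lsp1 alone gave 5321 to 7768 in tips and 611.5 to 1118 in lung. Sums without Lsp1 were not taken, so they do not show a direction of the list as a whole. Markers of blood cells were measured likewise. Of 4 erythroid and platelet markers tested 1 was higher, Slc4a1, the band 3 protein of red cells, at 1.16 (limma adjusted p = 0.0439), while Hba-a1 gave 1.37 (0.215). Of 7 neutrophil and mast cell markers tested 1 was higher, S100a9 at 1.69 (limma adjusted p = 0.0198), while the other 6 ran from -0.60 for Kit to 0.91 for Elane, with 0.57 (0.360) for S100a8, the partner of S100a9 in calprotectin. The call of Slc4a1 was lost with quantile, median and cyclic loess scaling (limma adjusted p = 0.228, 0.276 and 0.176) and with the control median subtracted (0.0621). That of S100a9 was lost with the same 3 scalings (limma adjusted p = 0.0734, 0.0913 and 0.0518). The part of macrophages, blood and the higher floor of the tip arrays in the lymphocyte values was not tested, apart from the subtraction of the control median given above.

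The genes whose log2 values ran most like those of Ptprc 101048_at over the 8 arrays were Pole2, Ctsc and Cep350, with Pearson r of 0.986, 0.983 and 0.981. For Rag1 161740_r_at, taken as the other gene of the set with the highest mean log2 value, they were Trappc3, Plxnb2 and Star, with 0.986, 0.985 and 0.978. The 8 arrays share 4 RNA samples and fall into 2 groups, so such values describe the order of these arrays only.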

How the data were processed

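Tips and whole lung were profiled on 8 Affymetrix arrays. Per the submitters' processing notes, the deposited values are MAS5 intensities per probe set (linear scale, version not given), and from the values the authors had scaled each array to a common level. The genome build is not given in the sources used here. The 9 genes and all gene lists were chosen with earlier results of these data known. Symbols came from GEO's platform annotation (10855 probe sets with 1 symbol, 396 with several, 1237 not named), updated by gene ID.

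Arrays were brought to one 2% trimmed mean (1501), 150 (10% of it) was added and log2 taken, which understates differences of dim probe sets. The 66 control probe sets and those under the 40th percentile were left out, leaving 7453. The 2 arrays of an RNA were averaged. Limma 3.58.1 in R 4.3.3 (lmFit, eBayes with an intensity trend) compared 2 with 2 RNA samples, with Benjamini-Hochberg adjustment. There were 2 residual and 7.05 prior degrees of freedom, and the median standard error of a difference was 0.40. The number of RNA samples, 2 a group, limits the precision. In 10 simulated data sets of 7453 probe sets, 200 were changed in each. There 2.35% of changes of 1, 44% of 2 and 84.8% of 3 (log2) were recovered, and 4.3% of calls were false. Far more probe sets were called in the data (2106), where the Benjamini-Hochberg cutoff is therefore less strict. These rates are thus not those of the data. Named genes were all probe sets of the 9 genes, the called genes and up to 4 further of each immune list by smallest p, and the 3 genes most correlated with Ptprc and with the brightest other gene. The experiment number pairs the samples by the design text, and deviations of tips and lung in experiment 1 correlated at 0.0452. Alternatives were scaling, offset, filter, floors, the block, arrays and RNA samples left out, and, chosen after seeing the data, subtraction of the control median and single arrays for the tip RNA of experiment 1.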

Additional observations from a re-analysis of the deposited data

Results flagged for a closer look

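Values that stand apart from the other 3 arrays of their group were found in 5 of 52 sets of 4 arrays. The cutoff would flag about 1 in 20 sets of 4 independent values. Each set here is 2 arrays of each of 2 RNA samples, so the count cannot be set against that rate. The ratio of the gap to the range was 0.919 for Ighm 93583_s_at on array 2 of the tip RNA of experiment 1 (signal 3601), the only one of the 5 at a called probe set. It was 0.881 for Ptprc 101297_at and 0.856 for Ighm 101276_at, both on array 1 of that RNA (signals 483 and 153). In lung it was 0.936 for Ighm 97577_f_at on array 1 of experiment 2 (234) and 0.978 for Ighm 99885_at on array 2 of experiment 1 (181). These last 4 values are all under the background of their array. With the tip RNA of experiment 1 taken from its array 1 alone, Ighm 93583_s_at gave 1.13 (limma adjusted p = 0.0705).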

How the results depend on the processing

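Of 9 probe sets tested, the number called (6) was 3 with quantile normalization, 2 with median centring, 0 with the floor at the highest background (limma; 1244), 3 with the floor at the next highest (792) and 2 on the arrays numbered 1 alone, and 0 to 7 without one RNA sample. Of the lymphocyte and leukocyte list genes, 17 were called, against 4 with quantile normalization, 6 with median centring, 5 with cyclic loess, 2 and 7 with the floors, 7 and 9 on the arrays numbered 1 or 2 alone, and 2 to 23 without one RNA sample. Over all probe sets 2106 were called, against 822 with the higher floor, 1229 on the arrays numbered 1, and 349 (no lung RNA of experiment 1), 556 (no lung RNA of experiment 2) and up to 3324 without one RNA sample, where the lone RNA of a group is taken to vary like the other group. The experiment as a replicate block kept all 6 (2452 calls in all). Quantile normalization, median centring and cyclic loess gave 1647, 1783 and 1962 calls over all probe sets. Cd79a turned to -0.50 with quantile normalization, -0.54 with median centring, -0.52 with cyclic loess, -0.89 on the arrays numbered 2, -0.23 with the control median subtracted and -0.27 with the tip RNA of experiment 1 from its array 2 alone, the last 2 chosen after seeing the data. Without one RNA sample it ran from -0.59 to 0.60 (-0.32 without the lung RNA of experiment 1), and Ighm 101346_at from -0.15 to 1.57. Ptprc, called under 17 of 21 alternatives, ran from -2.54 to -0.49, Ighm 93584_at (18 of 22) from 0.68 to 2.04, Rag1 (18 of 22) from 1.28 to 2.90, Cd79b (15 of 22) from 0.69 to 2.11, Ighm 93583_s_at (14 of 22) from 0.79 to 1.65 and Cd4 (10 of 21) from 0.15 to 1.84, none with a change of sign. The cause was not tested. Signals close to the control probe sets limit what can be said of the other 17 probe sets.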

Other observations

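A further 3 probe sets were annotated to Ighm together with other heavy chain genes and were not counted with it. Probe set 99421_at had 4111, 4140.1, 3376 and 3124 in tips, against 1997, 2550, 1475 and 2171 in lung, above background on all 8 arrays and without overlap. Its log2 difference was 0.82 ± 0.32 (SE; limma adjusted p = 0.0801), so it did not pass. Probe sets 92470_f_at and 97575_f_at were above background on 2 of 8 arrays each and under the filter.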
